A study of Danio rerio with 4 samples.

Results

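The genes il1b (ENSDARG00000098700), tnfa (ENSDARG00000009511) and tnfb (ENSDARG00000013598) encode the zebrafish interleukin 1 beta and the pair of Tnf proteins. They were taken by symbol from the deposited gene table, where each symbol occurs once, and make up 3 of 31466 features. Their transcripts were followed across cell types in 4 single-cell libraries of adult zebrafish hearts of genotype AB. The 2 sham libraries were sampled 6 h after an operation in which the pericardium was opened without touching the ventricle with the cryoprobe (6 hps). The 2 cryoinjured libraries were sampled 6 h after cryoinjury (6 hpci). Fish of both groups were given 4sU, a uridine analogue that marks new RNA, before the operation and stayed in water with morphine after it, so neither group is an untouched heart. Each library pooled the hearts of several fish, and the values are counts of unique molecular identifiers (UMIs) over labeled and unlabeled RNA together.

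Il1b is made as an inactive precursor, which inflammatory caspases cleave, and its receptor signals through the adaptor Myd88 to the transcription factor NF-kB. Tnf is made as a membrane protein, which the protease Adam17 sheds, and its receptors also signal to NF-kB, with inhibitors such as the Nfkbia proteins fed back by the same pathway. Monocytes, macrophages and neutrophils are the textbook sources of both cytokines in injured tissue, where they call in further leukocytes and act on endothelial cells, fibroblasts and muscle.

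The libraries held 15971 to 23000 barcodes and 86891164 to 136777379 UMIs, with a median of 2602 to 3798 UMIs in the 55075 cells kept. Between 314 and 524 barcodes of a library occurred in another one, and 6.46% to 33.4% of barcodes were left out for a mitochondrial share over 50%, the lowest in cryoinjured replicate 1 and the highest in cryoinjured replicate 2. Cells were assigned to classes by gates on marker genes, none of which is il1b, tnfa or tnfb, and 1580 cells that passed 2 or more gates were kept apart as mixed cells. There were 123 macrophage-like cells in sham replicate 1, 566 in sham replicate 2, 112 in cryoinjured replicate 1 and 550 in cryoinjured replicate 2, so that 82.6% of them lay in the libraries numbered 2. Their leading genes over the other classes included grn1 and c1qc, which are gate markers, and cd74a, which is not. Neutrophil-like cells, 79, 156, 239 and 203 in the same order, were led by lyz and lect2l, both gate markers. Leading genes outside the gate included mmp13a, at rank 4. The study uses mmp13 in the name of a macrophage-like cluster, and whether such cells lie in the neutrophil-like class was not tested. Markers that set the gate are bound to rank high, so they are no independent check of the classes. Of the UMIs in macrophage-like cells, 3.29% to 6.29% per library came from cardiomyocyte markers, against 7.90% to 9.92% in cardiomyocyte-like cells. The part of such free or carried-over RNA in the values below was not tested.

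Most UMIs of the 3 genes lay in few cells. Macrophage-like cells, 2.45% of all cells, held 30.7% of the 4938 il1b UMIs, 48.3% of the 1110 tnfa UMIs and 30.7% of the 2177 tnfb UMIs. Neutrophil-like cells, 1.23% of cells, held 14.0% of il1b, 5.37% of tnfb and 0.901% of tnfa, which is 10 tnfa UMIs in all. Mixed cells held another 22.2%, 19.8% and 19.9% of il1b, tnfa and tnfb. Cardiomyocyte-like cells, 69.0% of cells, held 18.6%, 17.5% and 20.2%. The 3422 cells that passed no gate, 6.21% of cells, held 3.85%, 6.22% and 6.66%. Their mean levels over the 4 libraries were 15.7, 5.45 and 11.3 CPM (UMIs per 1000000 of the cells' total). They are no class and do not appear in the orders of classes below. The mixed cells followed the leukocyte gates among those they had passed. In the 184 cells that passed both leukocyte gates, tnfa reached 47.1 CPM. In the 292 that passed the macrophage gate and a gate other than neutrophil, tnfa was 19.3 CPM. These 292 held 41.7%, 42.7% and 43.6% of the mixed il1b, tnfa and tnfb UMIs. In the 137 that passed the neutrophil gate and a gate other than macrophage, tnfa was 0.839 CPM, from 2 UMIs, while il1b was 73.9 CPM there. The 967 of 1580 mixed cells that passed neither leukocyte gate held 14.7% of the mixed il1b UMIs, 15.0% of tnfa and 25.6% of tnfb.

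**Figure D1:**
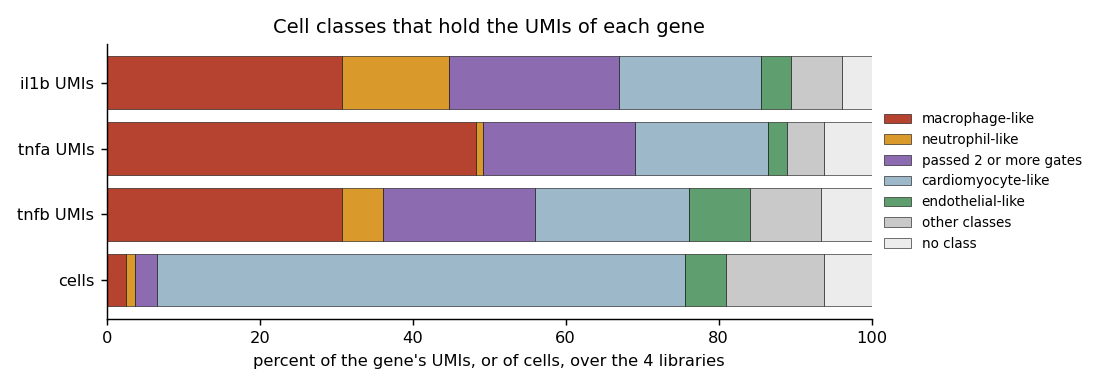
Stacked bars give, for each gene, the percent of its UMIs over the 4 libraries that lay in each cell class, and in the lowest bar the percent of cells. Macrophage-like cells are 2.45% of cells and hold 48.3% of tnfa UMIs, and neutrophil-like cells hold 14.0% of il1b but 0.901% of tnfa UMIs.

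Among the 8 classes large enough to sum, il1b was highest in neutrophil-like and macrophage-like cells. Its level in neutrophil-like cells was 257 CPM in sham replicate 1, 65.1 CPM in sham replicate 2, 94.2 CPM in cryoinjured replicate 1 and 276 CPM in cryoinjured replicate 2. In macrophage-like cells the same libraries gave 130.3, 139, 91.6 and 86.3 CPM. The neutrophil-like values spread over more than the whole range of the macrophage-like ones, and their high and low libraries did not follow the treatment. The 2 libraries with the high values had a median of 3822 and 2879 UMIs per neutrophil-like cell, and the 2 with the low values 4311 and 6275, a difference whose part in the level was not tested. The contrast of macrophage-like against neutrophil-like cells, with the library as a term, gave a log2 difference of -0.41 ± 0.44 (SE) for il1b (edgeR quasi-likelihood test with TMM scaling, adjusted p = 0.78 against a threshold of 0.05), so no order between the leukocyte classes was shown. In this contrast 6.5% of 7358 genes passed the threshold. Next in the order came fibroblast-like cells at 5.76 CPM on average, with 0 UMIs in sham replicate 1, and macrophage-like cells were above them by 3.98 ± 0.62 on the log2 scale (edgeR, adjusted p = 2.97e-05). In that contrast 24.7% of genes passed. From fibroblast-like cells down, through endothelial-like (5.65 CPM), smooth muscle-like (5.54), epicardial-like (4.22), cardiomyocyte-like (3.93) and erythrocyte-like cells (2.60), no neighbours in the order of il1b differed by this test.

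The 2 Tnf genes differed from each other in the neutrophil-like class. In macrophage-like cells tnfa was at 50.1 CPM in sham replicate 1, 43.7 in sham replicate 2, 25.3 in cryoinjured replicate 1 and 37.9 in cryoinjured replicate 2. In neutrophil-like cells it was at 2.08, 4.24, 1.30 and 0 CPM in the same order, from 1, 6, 3 and 0 UMIs. The classes did not overlap in any library, and tnfa was higher in macrophage-like cells by 4.41 ± 0.45 on the log2 scale (edgeR, adjusted p = 1.69e-10, 4 of 4 libraries). Every class below the neutrophil-like one had a mean tnfa level under 0.9 CPM. The cells that passed no gate, outside this order, averaged 5.45 CPM of tnfa, above the neutrophil-like mean of 1.90 CPM. What these cells are was not tested. No difference of neutrophil-like from erythrocyte-like cells, the next class, was detected (log2 -0.47 ± 0.62, edgeR, adjusted p = 0.66, and 1.14 with scaling by library sizes alone). Of the neighbours further down, only erythrocyte-like against cardiomyocyte-like cells passed for tnfa (log2 1.49 ± 0.44, edgeR, adjusted p = 0.035, in a contrast where 3.75% of genes passed). Their CPM ranges overlapped, 0.485 to 1.17 against 0.564 to 1.31, and with scaling by library sizes alone that call was lost (log2 0.08, adjusted p = 0.85). For tnfb the values were 35.1, 67.5, 24.4 and 39.2 CPM in macrophage-like cells and 35.3, 16.3, 13.0 and 50.2 CPM in neutrophil-like cells, in the same order of libraries. These ranges overlapped, and the contrast gave 0.84 ± 0.43 (edgeR, adjusted p = 0.33). Without cryoinjured replicate 2 the tnfb difference was 1.26 and passed (adjusted p = 0.026). Neutrophil-like cells were above the next class, fibroblast-like cells at 5.91 CPM on average, by 1.77 ± 0.59 for tnfb (edgeR, adjusted p = 0.030, 22.9% of genes passing), and no neighbours below them differed. Whether tnfa and tnfb differ in their class contrast was not itself tested.

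**Figure D2:**
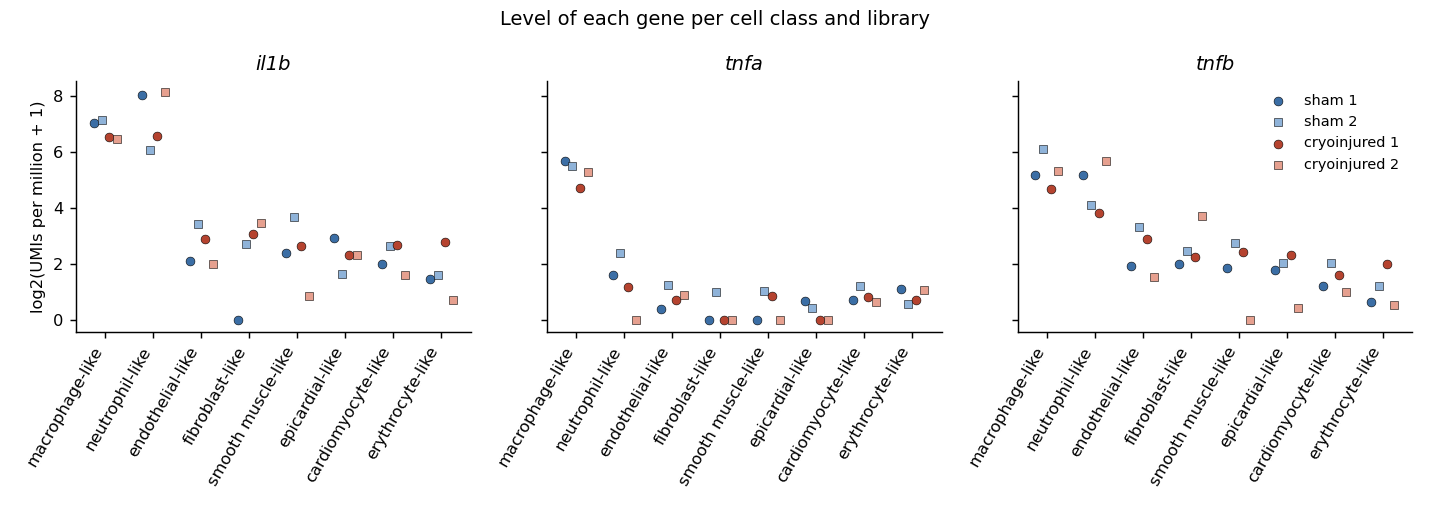
Each point is the level of one gene in the summed cells of one class and library, on a log2(CPM + 1) axis, with sham libraries in blue and cryoinjured ones in red and replicates 1 and 2 as circles and squares. il1b is high in both leukocyte classes, tnfa stands near 25 to 50 CPM in macrophage-like cells and at 0 to 4.24 CPM in neutrophil-like cells, and the other classes lie low for all 3 genes.

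Cardiomyocyte-like cells were taken as the class that should lack these cytokines, but they are not a clean negative. Their gate asked for 3% cardiomyocyte marker UMIs, and macrophage-like cells carried 3.29% to 6.29%. The cardiomyocyte-like cell with the most il1b held 7 to 16 il1b UMIs, depending on the library. Whether leukocytes lie in this class was not tested. Against cardiomyocyte-like cells, macrophage-like cells were higher by 4.74 ± 0.49 for il1b, 5.44 ± 0.32 for tnfa and 4.39 ± 0.42 for tnfb. These log2 differences passed (edgeR, adjusted p = 3.62e-08, 5.96e-20 and 1.99e-09), in a contrast where 24.7% of genes were called higher. Neutrophil-like cells were higher for il1b by 5.15 ± 0.51 and for tnfb by 3.55 ± 0.45 (edgeR, adjusted p = 2.19e-08 and 5.35e-07), with 16.4% of genes called higher. For tnfa the neutrophil-like difference was 1.03 ± 0.60 and missed the threshold (edgeR, adjusted p = 0.20). Endothelial-like cells did not pass for il1b (0.38 ± 0.47, edgeR, adjusted p = 0.53) or tnfa (-0.21 ± 0.41, adjusted p = 0.70). For tnfb they were higher by 1.25 ± 0.41 (edgeR, adjusted p = 0.015), with 27.1% of genes called higher. This tnfb level rested on few cells. In sham replicates 1 and 2 it came from 25 and 110 UMIs in 12 and 48 cells. In cryoinjured replicates 1 and 2 it came from 29 and 9 UMIs in 16 and 4 cells. A single cell held up to 6, 25, 6 and 5 of these UMIs, in the same order. Whether leukocytes lie in the endothelial-like class was not tested. The rarest classes were not summed. In 109 thrombocyte-like, 18 T and NK lymphocyte-like, 17 B lymphocyte-like and 3 dendritic-like cells there were 12, 1, 1 and 0 il1b UMIs. For tnfa the counts were 4, 0, 1 and 0, and for tnfb 9, 0, 0 and 3, the last in 1 cell. Thrombocyte-like il1b stood at 17.3 and 2.64 CPM in sham replicates 1 and 2, and at 2.58 and 14.9 CPM in cryoinjured replicates 1 and 2. These levels came from 6, 2, 1 and 3 UMIs.

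Shares of cells were compared at equal depth, with each cell thinned at random to 1000 UMIs. All counts of thinned cells here and below rest on a single random draw per depth, and other draws were not made. At that depth il1b was detected in 11.4% of macrophage-like cells of sham replicate 1 (95% Wilson interval 6.90% to 18.2%), 13.8% of sham replicate 2 (11.2% to 16.9%), 10.2% of cryoinjured replicate 1 (5.78% to 17.3%) and 8.36% of cryoinjured replicate 2 (6.33% to 10.98%). In neutrophil-like cells the il1b shares were 25.3%, 11.5%, 16.2% and 23.6% in the same order. Over the 4 libraries il1b was found in 149 of 1347 macrophage-like cells (11.1%), 123 of 667 neutrophil-like cells (18.4%) and 133 of 36220 cardiomyocyte-like cells (0.367%). The median depth before thinning was 6214 to 6472 UMIs per macrophage-like cell and 2259 to 2919 per cardiomyocyte-like cell, and without thinning the il1b shares were 39.4%, 42.7% and 1.497%. For tnfa 57 macrophage-like cells (4.23%) and 26 cardiomyocyte-like cells (0.0718%) were positive at 1000 UMIs. No neutrophil-like cell was, 0 of 667, with an upper 95% Wilson limit of 0.573% for cells pooled over libraries. Within single libraries that limit was 1.65% to 4.64%. At full depth 8 of 677 neutrophil-like cells (1.18%) held a tnfa UMI, against 0.381% of cardiomyocyte-like cells, which were shallower. For tnfb the shares at 1000 UMIs were 5.64% of macrophage-like, 2.099% of neutrophil-like and 0.138% of cardiomyocyte-like cells. Endothelial-like cells over the 4 libraries had 0.304% for il1b and 0.0675% for tnfa, from 9 and 2 cells, and their order against cardiomyocyte-like cells differed between libraries (il1b 0.319% against 0.290% in sham replicate 1, and 0.292% against 0.607% in sham replicate 2). For tnfb the endothelial-like share was 0.405%, from 4, 6, 2 and 0 cells. The intervals cover counting error only, and cells of one library are not replicates.

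**Figure D3:**
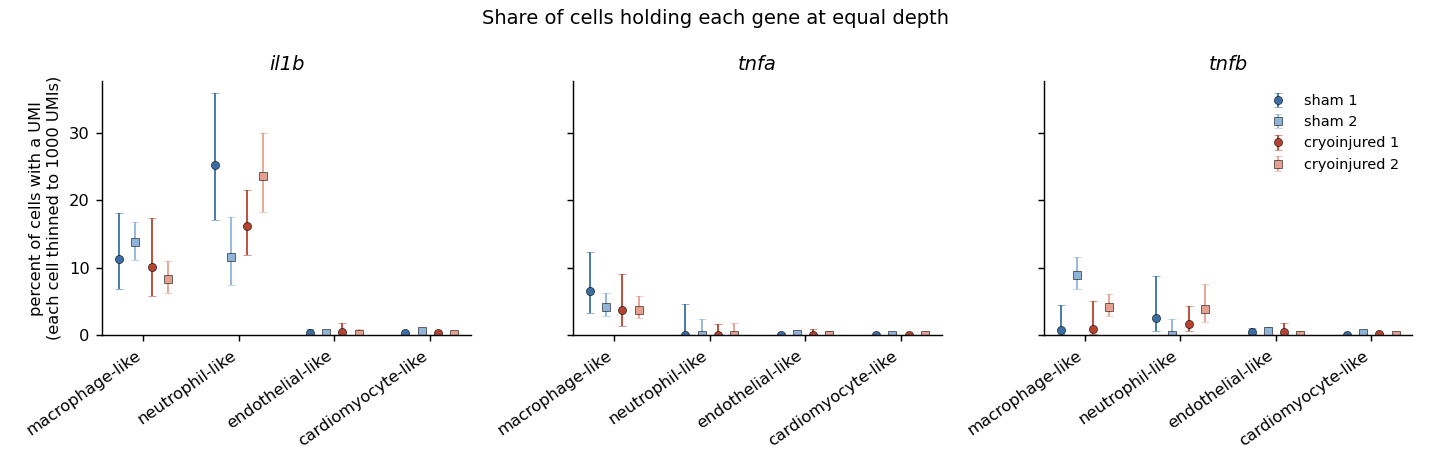
The y axis gives the percent of cells with at least 1 UMI of the gene after each cell was thinned to 1000 UMIs, per library, with 95% Wilson intervals as bars. Shares of il1b are 8.36% to 13.8% in macrophage-like and 11.5% to 25.3% in neutrophil-like cells, tnfa is at 0 in neutrophil-like cells of all 4 libraries, and endothelial-like and cardiomyocyte-like cells stay under 0.7%.

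The levels in macrophage-like cells came from a minority of cells with several UMIs each. A cell with il1b held 2.35 to 3.29 il1b UMIs on average per library at full depth, and at most 24. For tnfa the mean was 2.41 to 2.73 per positive cell and the highest cell held 19. The 10 cells with the most tnfa held 80.0% of the tnfa UMIs of macrophage-like cells in sham replicate 1 and 93.1% in cryoinjured replicate 1, which had 22 and 12 positive cells, and 38.7% and 35.4% in sham and cryoinjured replicate 2. The tnfa level of the libraries numbered 1 thus rested largely on 10 cells each.

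Over the 4 libraries, each pair of the cytokines was found in the same macrophage-like cell more often than their shares alone give. At 1000 UMIs, 14 of 1347 cells held both il1b and tnfa, where 6.38 were expected from the shares within each library, a ratio of 2.19. Per library the cells with both numbered 2 and 8 in the sham and 0 and 4 in the cryoinjured libraries, against 0.911, 3.31, 0.407 and 1.76 expected. Cryoinjured replicate 1 held 4 cells with tnfa in all, so a ratio could not be read there. For il1b with tnfb, 18 cells held both where 9.17 were expected, of which 1 lay in sham replicate 1, 15 in sham replicate 2, 0 in cryoinjured replicate 1 and 2 in cryoinjured replicate 2, against 0.114, 7.03, 0.102 and 1.92 expected. Sham replicate 1 and cryoinjured replicate 1 each held 1 tnfb cell at this depth, so a ratio could not be read there. The excess of this pair at 1000 UMIs lay in sham replicate 2 and was not seen in cryoinjured replicate 2. That is 1 library against 1, and the difference was not tested. For tnfa with tnfb 10 cells held both where 3.14 were expected. At 2000 UMIs, which keeps 1287 of the cells, the 3 pairs had 41 cells against 20.1, 51 against 24.9 and 23 against 10.8, with ratios for il1b and tnfa of 1.79, 2.104 and 2.19 in sham replicate 1, sham replicate 2 and cryoinjured replicate 2. In cryoinjured replicate 1, again with 4 tnfa cells, 1 cell held both where 0.88 were expected. At 1000 UMIs most positive cells still held 1 cytokine only, a depth at which many transcripts go unseen. Without thinning, where cells differ in depth, 141 of 210 macrophage-like cells with tnfa also held il1b (84.5 expected). Of the 319 with tnfb, 204 did (131 expected). In sham replicate 2, 57 of 566 macrophage-like cells held il1b alone at 1000 UMIs, 6 held it with tnfa, 13 with tnfb and 2 with both. In neutrophil-like cells at 1000 UMIs, 8 cells held il1b and tnfb where 3.04 were expected, and none held tnfa. Without thinning 8 neutrophil-like cells held tnfa, 5 of them with il1b, where 3.10 were expected. In cardiomyocyte-like cells, 1 cell held il1b and tnfa at 1000 UMIs where 0.0954 were expected. For il1b with tnfb there were 4 against 0.232, and for tnfa with tnfb 0 against 0.0363. Without thinning the 3 pairs had 48 against 2.48, 81 against 5.80 and 34 against 1.47. The ratio for il1b and tnfa was then 19.4, and 1.67 in macrophage-like cells. These ratios cannot be ranked, since il1b was in 39.4% of macrophage-like and 1.497% of cardiomyocyte-like cells, which caps the macrophage-like ratio far lower. Uneven depth and leukocytes among the cardiomyocyte-like cells could also raise the ratio there. An excess was thus counted in both classes, but in cardiomyocyte-like cells at 1000 UMIs it moved with the gate. With gates of 2 markers, 0 of these cells held il1b and tnfa and 2 held il1b and tnfb. With gates of 4 markers the counts were 2 and 8. The source of the excess in cardiomyocyte-like cells was not tested. These are counts over cells of few libraries and were not tested.

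**Figure D4:**
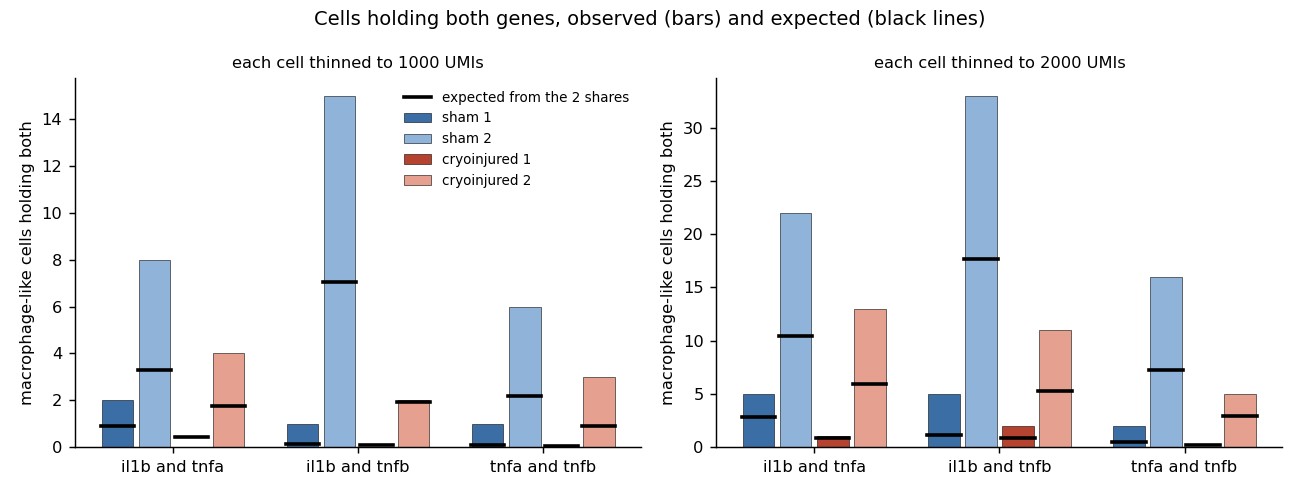
Bars give the number of macrophage-like cells per library that hold both genes of a pair, after thinning to 1000 UMIs (left) or 2000 UMIs (right), and black lines the number expected from the shares of the 2 genes in that library. At 2000 UMIs the il1b and tnfa bars reach 5, 22, 1 and 13 cells against 2.80, 10.5, 0.88 and 5.94 expected.

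Other genes of the pathway were looked at in the same way with il1b, from a list of 52 symbols, of which 48 are in the gene table. At 1000 UMIs csf3b, a granulocyte colony-stimulating factor gene, was found with il1b in 47 macrophage-like cells where 21.4 were expected, with a ratio above 1 in 4 of 4 libraries. The chemokine gene cxcl8a was found with il1b in 83 cells against 52.8, and the inhibitor gene nfkbiaa in 61 against 36.7, both above 1 in 3 of 4 libraries. The cytokine gene il6, rarer, had 8 cells with il1b against 2.43, above 1 in 4 of 4. The chemokine gene cxcl18b, in 34 cells, had 2 cells with il1b against 4.17 expected and no library above 1. These counts are too small to show a direction. Some genes showed little or no excess: cxcl8b.1 had 12 cells with il1b against 11.4, ptgs2a 4 against 4.19 and tradd 2 against 2.32. Of the others, acod1 had 8 cells with il1b against 2.54 and gsdmea 5 against 1.99. The genes nfkb2, csf3a and ptgs2b, each found in 5 cells, and tnfaip3, in 4, had 0 cells with il1b. The genes named here are a part of the list, and their ratios are descriptions over cells. Ratios of genes outside the list were not computed. Whether those above exceed that of any other transcript of these cells is thus not known.

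The sham and cryoinjured libraries were compared on sums per library, first over all kept cells, where a change in the number of leukocytes and a change in RNA per leukocyte cannot be told apart. The level of il1b over all kept cells was 7.44 CPM in sham replicate 1, 17.8 in sham replicate 2, 11.5 in cryoinjured replicate 1 and 13.0 in cryoinjured replicate 2. That of tnfa was 1.52 and 4.63 against 1.32 and 3.44 CPM, and that of tnfb 2.52 and 9.43 against 3.78 and 5.53 CPM. Sham replicate 2 was the highest of the 4 libraries for each gene, and the groups overlapped. The log2 difference of cryoinjured against sham was 0.62 ± 0.44 for il1b, 0.32 ± 0.66 for tnfa and 0.32 ± 0.60 for tnfb (edgeR, adjusted p = 0.83, 0.93 and 0.92). With scaling by library sizes alone the same differences were -0.04, -0.37 and -0.36, while the median of all genes stood at -0.63, so the direction over all cells depends on the scaling. None of the 14276 genes passed in this contrast (0%), with 634 at an unadjusted p under 0.05. With the replicate number as a block 38 genes passed (0.266%), and il1b, tnfa and tnfb were not among them (adjusted p = 0.33, 0.62 and 0.46). DESeq2 called 40 genes there, again without these 3. In CPM, without TMM scaling, the 2 numbered pairs went opposite ways for il1b over all cells. Cryoinjured over sham replicate 1 was 0.63 and cryoinjured over sham replicate 2 was -0.45 in log2 CPM. With TMM scaling the fit with the block gave 0.70 ± 0.30 for il1b. Left-out libraries moved the value without the block between 0.20 and 1.25.

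Within macrophage-like cells both cryoinjured libraries had lower CPM of il1b and tnfa than both sham libraries, as had many other genes. The means were 134.5 ± 5.96 CPM in sham and 89.0 ± 3.81 CPM in cryoinjured libraries for il1b (SD, n = 2), and 46.9 ± 4.56 against 31.6 ± 8.90 CPM for tnfa. Of the 4868 genes tested, 41.1% had both cryoinjured libraries under both sham libraries in CPM, and the median gene stood at -0.46 on the log2 scale with library sizes alone. Of the UMIs of these cells, cardiomyocyte markers took 5.61% and 6.29% (sham) and 4.52% and 3.29% (cryoinjured), and their part in the difference was not tested. With the TMM scaling the log2 differences were -0.20 ± 0.36 for il1b, -0.13 ± 0.40 for tnfa and -0.26 ± 0.45 for tnfb (edgeR, adjusted p = 1.00 for each). None of the 4868 genes passed (0%), with 224 at an unadjusted p under 0.05 and 1 called by DESeq2. Without sham replicate 1, sham replicate 2, cryoinjured replicate 1 or cryoinjured replicate 2, 24, 8, 187 and 30 genes passed, in fits where the lone library of a group is assumed to vary like the 2 of the other group. Left-out libraries moved the tnfa value between -0.53 and 0.23 and the tnfb value between -0.75 and 0.25, so neither had a settled direction. The il1b share at 1000 UMIs was 12.6% ± 1.70 in sham and 9.27% ± 1.29 in cryoinjured libraries (SD, n = 2). Both cryoinjured shares were under both sham shares, for il1b as for tnfa, and 41.1% of genes did so in CPM. How many genes did so in their shares was not counted, so this does not set il1b apart. The exact two-sided permutation test gave p = 0.33, the smallest that 2 against 2 libraries allow. For tnfa the share was 5.37% ± 1.60 against 3.76% ± 0.0809 (exact p = 0.33), and for tnfb 4.91% ± 5.80 against 2.55% ± 2.30 (exact p = 1.00). The tnfb shares were 0.813% in sham replicate 1 and 0.926% in cryoinjured replicate 1, from 1 cell each, and 9.01% and 4.18% in sham and cryoinjured replicate 2. Their order differed with and without the thinning, a single random draw. Without it sham replicate 1 (19.5%) was above cryoinjured replicate 2 (17.6%).

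In neutrophil-like cells il1b averaged 161 ± 136 CPM in sham and 185 ± 128 CPM in cryoinjured libraries (SD, n = 2), and the log2 difference was 0.38 ± 0.70 (edgeR, adjusted p = 1.00). For tnfb it was 0.44 ± 0.72 (adjusted p = 1.00), and tnfa did not pass the filter on low counts. None of 2831 genes passed (0%), with 27 at an unadjusted p under 0.05 and 0 called by DESeq2. Cryoinjured replicate 1 was below sham replicate 1 by 1.45 log2 CPM units for il1b (-1.45), and cryoinjured replicate 2 was above sham replicate 2 by 2.08. The injury effect of macrophage-like cells minus that of neutrophil-like cells was -0.47 ± 0.97 for il1b, 1.57 ± 1.19 for tnfa and -0.48 ± 0.92 for tnfb (edgeR, adjusted p = 1.00 for each), and 0% of 8178 genes passed this difference. In endothelial-like cells, where il1b stood at 2.99 to 9.80 CPM, the contrast gave -0.08 ± 0.57 for il1b and -0.11 ± 0.65 for tnfb (edgeR, adjusted p = 1.00 for both), with 0% of 7674 genes called and 241 at an unadjusted p under 0.05. Cardiomyocyte-like cells gave 0.37 ± 0.48, 0.00 ± 0.50 and -0.02 ± 0.51 for il1b, tnfa and tnfb (edgeR, adjusted p = 0.83, 1.00 and 0.99), with 0% of 12392 genes called. In the 4 remaining classes no member passed where it could be fitted, nor did any other gene (0% each). With the replicate number as a block 101 genes passed in cardiomyocyte-like cells (0.815%), 153 in epicardial-like (3.82%), 26 in smooth muscle-like (0.487%) and 15 in fibroblast-like cells (0.666%), none of them il1b, tnfa or tnfb. The SE was wide, 0.36 to 0.72 in the leukocyte classes. Differences well above the SE could also have been missed in either direction, and no limit of detection is given.

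**Figure D5:**
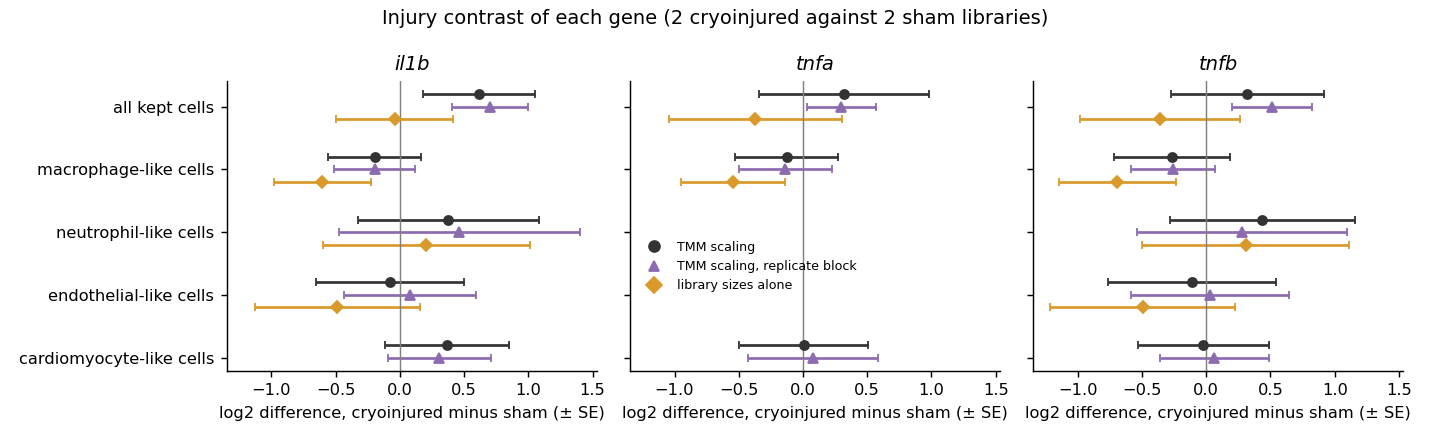
Points give the log2 difference of cryoinjured minus sham libraries for each gene in 5 sets of cells, with the SE as bars, under TMM scaling, TMM scaling with the replicate number as a block, and library sizes alone (not run in cardiomyocyte-like cells). Sets without a tnfa point could not be fitted, no value passed the threshold, and over all kept cells the library-size values are -0.04, -0.37 and -0.36 where the TMM values are 0.62, 0.32 and 0.32.

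No gene of the pathway list passed the injury contrast in macrophage-like cells, where 25 of the 48 in the table could be tested. Their log2 differences ran from -0.91 to 0.78 with a median of -0.06, beside -0.04 over all genes tested. Among genes of processing and release (4 of 7 tested), the most abundant were gsdmea at 14.2 CPM, of the pore-forming gasdermins, caspa at 10.9 CPM, an inflammatory caspase, and pycard at 5.57 CPM, the inflammasome adaptor. Their differences were 0.05 ± 0.52, -0.16 ± 0.53 and 0.53 ± 0.48. Among receptors and adaptors (4 of 7 tested), the Tnf receptor genes tnfrsf1b and tnfrsf1a had 0.63 ± 0.58 and 0.11 ± 0.53, and tradd, an adaptor of Tnf receptors, -0.91 ± 0.52. Of NF-kB factors and feedback genes (7 of 9 tested), nfkbiab and nfkbiaa stood at 234 and 222 CPM and tnip1, which restrains NF-kB signalling, at 32.5 CPM. Their differences were -0.06 ± 0.35, -0.03 ± 0.42 and -0.02 ± 0.39.

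Among the induced products (8 of 13 tested), cxcl8a had the highest level of the list. It was at 840 CPM in both sham libraries and at 549.9 and 487 CPM in the cryoinjured ones, without overlap (as 41.1% of genes), and its difference was -0.30 ± 0.30. For csf3b the values were 125 and 280 against 113 and 105 CPM (-0.49 ± 0.44), and for the chemokine gene cxcl8b.1 104 and 138 against 48.0 and 151 CPM (0.16 ± 0.53). Among other ligands of the Tnf and Il1 families (2 of 12 tested), il1fma was at 25.2 CPM with -0.09 ± 0.55 and tnfsf11 at 3.95 CPM with 0.78 ± 0.61. The ligand gene tnfsf10, at 1.13 CPM, was not tested. All these adjusted p-values were 0.998 by edgeR. In neutrophil-like cells 0 of 15 pathway genes tested passed, and over all kept cells 0 of 41.

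The genes whose pattern over the 32 sums of 8 classes and 4 libraries was most like that of il1b were ncf1, a subunit of the phagocyte NADPH oxidase (Pearson r = 0.979 of log2(CPM + 1)), si:dkey-27h10.2 (0.967), fcer1gl (0.965), cd22 (0.964) and spi1b, a transcription factor of myeloid cells (0.962). They were compared among 1575 genes. For tnfa they were mfap4 (0.938), lgals3bpb (0.933), si:ch211-147m6.1 (0.923), the complement gene c1qb (0.918) and the granulin gene grna (0.917), of which mfap4 and c1qb are markers of the macrophage gate. For tnfb they included the cathepsin gene ctss2.1 (0.944), also a gate marker, si:dkey-192g7.3 (0.936), il1b itself (0.920) and samsn1a (0.920). Between il1b and tnfa r was 0.643, and between tnfa and tnfb 0.669. The sums of one library share its depth and free RNA, and the correlations are descriptions.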

How the data were processed

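The authors deposited UMI counts per gene and barcode, made per the labels with Cell Ranger 4.0.0 against GRCz11, with no normalization. Other files held barcodes and gene names. Cells needed 500 UMIs, 200 genes and a mitochondrial share of no more than 50%. The smallest barcodes held 1144 UMIs in sham replicate 1, 1042 in sham replicate 2, 500 in cryoinjured replicate 1 and 1068 in cryoinjured replicate 2. Only cryoinjured replicate 1 thus held cells under 1000 UMIs, and thinning kept 5876 of its 7667 cardiomyocyte-like cells. The part of this difference in the comparisons was not tested. A gate needed 3 distinct markers and 1 marker UMI per 1000 (2 markers for rare classes, 20% marker UMIs for erythrocytes, 5 markers and 3% for cardiomyocytes without another gate). Mixed cells were left out of classes and no doublet caller was run. Gate thresholds were set after marker counts were seen, and the genes and lists were chosen with earlier results of these data known. 

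Sums over the cells of a class in a library were tested with edgeR 4.0.16 (TMM, filterByExpr, robust quasi-likelihood, Benjamini-Hochberg over all genes tested, threshold 0.05; group alone, or library and class over 8 classes). DESeq2 1.42.0, other scalings, filters, gates and left-out libraries were alternatives, and the fits were run on simulated counts. The simulation used a fixed dispersion, no library effect beyond depth, and asked only for the right sign of large differences. It does not show how the fits behave at the spread of these libraries. Depth sets the precision: a count of 0 allows up to 3 UMIs. The supplement of the study gives libraries 1 and libraries 2 a shared operator each, and same-numbered libraries deviated together with r = 0.455 over all cells, 0.195 in macrophage-like, 0.346 in endothelial-like and -0.302 in neutrophil-like cells. The methods of the study describe the libraries of a group as independent pools of hearts. For the injury contrast, pathway genes were named where past the test, otherwise the 3 most abundant of each list in macrophage-like cells. The genes set beside il1b in single cells were not all chosen by this rule. Likeness used genes of at least 20 CPM in the highest class, with 1 CPM added.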

Additional observations from a re-analysis of the deposited data

How the results depend on the processing

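Of 121 alternative values of the injury contrasts of il1b, tnfa and tnfb, 0 passed the threshold by edgeR or DESeq2, and 0 of 27 for the difference of injury effects. With library sizes alone the all-cell values turned to -0.0392 (il1b), -0.37 (tnfa) and -0.36 (tnfb). With the replicate block the endothelial-like values were 0.0767 (il1b) and 0.0288 (tnfb), and with mixed cells kept tnfb was 0.0496. The block changed no call of these genes, but 38 genes passed over all kept cells, 101 in cardiomyocyte-like, 153 in epicardial-like, 26 in smooth muscle-like and 15 in fibroblast-like cells; crossing the numbers in neutrophil-like cells left 0. For tnfa, which the filter leaves out there, no filter gave -1.62 in neutrophil-like and 0.23 in endothelial-like cells, neither past the threshold.

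DESeq2 called 40 genes over all kept cells and 1 in macrophage-like cells. Without a filter 6, 17, 4 and 16 genes passed in all kept, macrophage-like, neutrophil-like and endothelial-like cells. Leaving out 1 library, where the lone library of a group is assumed to vary like the other group, gave 0 to 42, 8 to 187, 0 to 56 and 0 to 132, the highest each time without cryoinjured replicate 1. The same step moved the injury values over all kept cells from 0.20 to 1.25 (il1b), -0.64 to 1.1998 (tnfa) and -0.28 to 1.42 (tnfb). In macrophage-like cells the ranges were -0.20 to -0.11, -0.53 to 0.23 and -0.75 to 0.25. In neutrophil-like cells they were -0.42 to 1.51 (il1b) and -0.62 to 1.06 (tnfb), and in endothelial-like cells -0.61 to 0.85 (il1b) and -0.90 to 0.91 (tnfb). The macrophage-like against neutrophil-like level held for tnfa (3.94 to 5.16) and moved for tnfb (0.32 to 1.26, passing without cryoinjured replicate 2). The difference of injury effects ran from -1.86 to -0.03 for il1b, 0.44 to 8.25 for tnfa, the last without cryoinjured replicate 1, which leaves 0 tnfa UMIs in cryoinjured neutrophil-like cells, and -1.56 to 0.25 for tnfb. The tnfb share difference ran from -6.46 to 1.74 percentage points, the last without sham replicate 2. The cause was not tested for any of these. A fit of the macrophage and neutrophil sums alone, and the crossed numbers, were chosen after seeing the data.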
